A study of Mus musculus with 4 samples.

Results

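Chemokine receptors are membrane proteins coupled to Gi proteins that let a leukocyte sense gradients of small secreted proteins, the chemokines, and move along them. Regulatory T (Treg) cells, which depend on the factor Foxp3 and damp immunity, use Ccr7 and Cxcr4 to circulate through and stay in lymphoid organs and bone marrow, Cxcr5 to enter B cell follicles, and receptors such as Cxcr3, Cxcr6, Ccr2, Ccr4, Ccr6 and Ccr8 to reach inflamed or barrier tissue. Described here are the transcripts of 9 such receptors, Cxcr4, Cxcr3, Cxcr5, Cxcr6, Ccr2, Ccr4, Ccr6, Ccr7 and Ccr8, which were 9 of 14193 genes with a named row. Each was found by its symbol in the 4 library tables, with the transcript of highest mean over the 4 libraries taken for the gene, and all 9 had values in every library.

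The libraries came from Treg cells of the spleen of C57BL/6 mice, 2 from mice with a Treg conditional knockout of Nsd2 (cKO) and 2 from wild-type (WT) mice. Nsd2 encodes an enzyme that dimethylates lysine on the tail of histone H3. Every library was made from the mixed RNA of at least 3 mice, so n = 2 counts pools of animals. The labels give neither the Cre driver, nor the deleted exons, nor age. The values are RPKM, reads scaled to transcript length and to the size of the library, so levels can be set beside each other across genes.

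The labelled genotype and cell type were checked first. Nsd2, listed under its older symbol Whsc1, stood at 3.46 and 4.27 RPKM in cKO libraries and at 6.82 and 7.44 RPKM in WT libraries, so that transcript remained in the knockout at 54.2% of the WT mean. Foxp3 stood at 145 and 113 RPKM in cKO libraries and at 144 and 128 RPKM in WT libraries. The depth read from the steps between low values was estimated at 19192000 to 21225000 reads per library, which put the counting error of a member's value at about 1.39 to 10.5%. Markers of other cells were measured as lists. Of B cells, Cd79a, Cd79b and Cd22 summed to 11.7 and 10.8 RPKM in cKO libraries and to 8.46 and 6.78 RPKM in WT libraries, and 7 myeloid markers summed to 17.6 and 8.14 RPKM in cKO libraries and to 6.39 and 8.78 RPKM in WT libraries. The red cell gene Hba-a1 stood at 18.1 and 2.78 RPKM in cKO libraries and at 9.63 and 3.92 RPKM in WT libraries. Of the CD8 and NK cell markers, Cd8b1 stood at 5.22 and 6.31 RPKM in cKO libraries and at 6.91 and 6.49 RPKM in WT libraries. Cd8a went the other way at a far lower level, with 0.336 and 0.394 RPKM in cKO libraries and 0.149 and 0.253 RPKM in WT libraries. Klrb1c was at 0.377 and 0.538 RPKM in cKO libraries and at 0.332 and 0.577 RPKM in WT libraries, which overlapped. The summed dendritic cell markers were at most 0.870 RPKM and those of plasma cells at most 0.402 RPKM in a library.

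The window before a start of Cxcr4 differed in base composition from the windows of the other members that had one. The 250 bases before a RefSeq start (GRCm38.p6) are shown for Cxcr4, the member with the largest difference, and for Ccr4, the member with the next lowest p, on the strand of the gene. The Cxcr4 window is at chr1:128592300-128592549 and the Ccr4 window at chr9:114496545-114496794, both on the minus strand. The Ccr4 window lies inside the Ccr4 gene (chr9:114490316-114505476, 5 RefSeq transcripts), so it precedes an inner start and not the outermost. Capitals mark matches, on either strand, to GGGCGG (the GC box of Sp factors), the palindrome of NRF1, TATAAA (the TATA box), TGANTCA (AP-1), GTAAACA (forkhead factors) and TCACACC (T-box factors).
Cxcr4: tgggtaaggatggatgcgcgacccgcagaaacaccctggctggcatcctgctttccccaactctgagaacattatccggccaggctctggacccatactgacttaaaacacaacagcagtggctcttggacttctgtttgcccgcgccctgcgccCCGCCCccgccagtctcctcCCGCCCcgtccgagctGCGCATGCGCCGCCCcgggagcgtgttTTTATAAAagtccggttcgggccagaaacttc
Ccr4: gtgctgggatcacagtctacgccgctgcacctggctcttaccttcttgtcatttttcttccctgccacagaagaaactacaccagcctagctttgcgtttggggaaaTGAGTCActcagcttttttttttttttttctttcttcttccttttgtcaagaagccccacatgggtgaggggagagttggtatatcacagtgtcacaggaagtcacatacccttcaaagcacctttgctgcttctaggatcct

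The Cxcr4 window held 3 GC boxes, 1 NRF1 palindrome that shares 1 base with the last of them, and a TATA box on both strands from 32 to 25 bases before the start. Of 32851 such windows of mouse genes, 32.7% held a GC box, 12.4% a TATA box and 0.782% the NRF1 palindrome. Its G and C content was 61.2%, with 19 CpG dinucleotides, against a median of 52.4% over all windows. The Ccr4 window was at 46.4% with 3 CpG and held the AP-1 match, which 6.75% of all windows held. The windows of Cxcr3, Cxcr6, Ccr2, Ccr6 and Ccr8 lay between 37.2% and 53.6% and held none of the 6 motifs, and Ccr7 and Cxcr5 were not analysed here for sequence. The Ccr2 window and the second of 2 Ccr6 windows also lie inside their genes. These matches describe letters and do not show binding.

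Cxcr4 stood apart from the other receptors in the knockout. Cxcr4, the receptor for Cxcl12, which holds cells in bone marrow and guides them in lymphoid tissue, had 48.1 and 40.2 RPKM in cKO libraries and 102 and 94.6 RPKM in WT libraries. Both cKO libraries lay below both WT libraries, with a gap several times wider than the gap within either genotype. The means were 44.2 ± 5.55 RPKM in cKO and 98.2 ± 5.12 RPKM in WT (SD, n = 2 each), which puts cKO at 44.9% of WT, a 2.22-fold lower level. These values stood for about 1666 and 1541 reads in cKO libraries and about 3582 and 3265 reads in WT libraries. Cxcr4 therefore lay above 89.3% and 86.9% of the genes tested in the cKO libraries, and above 96.1% and 95.9% in the WT libraries.

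**Figure D1:**
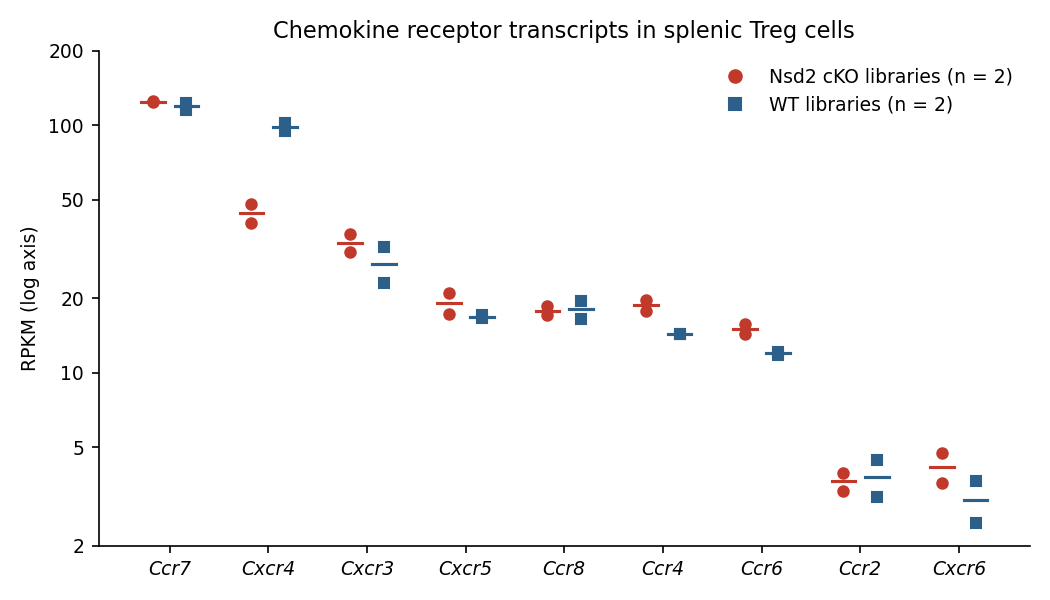
RPKM of the 9 receptors on a log axis, with each of the 2 Nsd2 cKO libraries as a circle, each of the 2 WT libraries as a square and the group mean as a bar. Cxcr4 stands at 48.1 and 40.2 RPKM in cKO and at 102 and 94.6 RPKM in WT, while Ccr7 lies between 115 and 125 RPKM in all 4 libraries.

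In the test across all genes, limma on log2(RPKM + 1) with Benjamini-Hochberg adjustment, the log2 fold change of Cxcr4 was -1.14 with a standard error of 0.14 and a 95% interval from -1.49 to -0.79. Of the 10688 genes tested, 0.0% had an adjusted p under 0.05, and 332 genes, which is 3.11%, had an unadjusted p under 0.05. Cxcr4 was among those 332 in limma (unadjusted p = 0.000252, adjusted p = 0.9998) and so did not pass. With 1 library left out, the log2 fold change of Cxcr4 ran from -1.27 to -1.01. In those fits a genotype is a single library that is assumed to vary like the other genotype, and limma takes nearly all of the spread from the other genes. Only the fold change is therefore read from them here. Of the genes tested, 0.196%, 21 genes with Cxcr4 among them, had both cKO libraries below both WT libraries and a WT mean at least 2 times the cKO mean. Exact permutation of 2 against 2 libraries cannot give a two-sided p under 0.333, whatever the gene.

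The other members did not share this difference. Ccr7, the receptor for Ccl19 and Ccl21 that brings T cells into lymph nodes and T cell zones, had 125 and 124 RPKM in cKO libraries and 123 and 115 RPKM in WT libraries. It was the highest of the family in all 4 libraries and its genotypes lay close together, with the cKO libraries just above. Its log2 fold change was 0.06 with a 95% interval from -0.23 to 0.36. Cxcr5, the receptor for Cxcl13 that marks follicular T cells and B cells, had 17.3 and 20.98 RPKM in cKO libraries and 16.6 and 17.1 RPKM in WT libraries. The lower cKO library was close to the higher WT library, and the log2 fold change of Cxcr5 was 0.17 with a standard error of 0.14.

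Of the receptors of type 1 and inflammatory homing, Cxcr3 was the most abundant. Cxcr3, the receptor for the interferon-induced Cxcl9 and Cxcl10, had 36.3 and 30.8 RPKM in cKO libraries and 32.1 and 23.0 RPKM in WT libraries. The genotypes overlapped, and in both genotypes the library numbered 1 was the higher. Cxcr6, the receptor for Cxcl16, had 3.57 and 4.74 RPKM in cKO libraries and 2.46 and 3.64 RPKM in WT libraries, which also overlapped. Its values rested on 130 and 191 reads in cKO libraries and on 91 and 132 reads in WT libraries, so counting alone gave errors of 7.24 to 10.5%. Ccr2, the receptor for Ccl2 that is known best from monocytes, had 3.94 and 3.34 RPKM in cKO libraries and 3.14 and 4.44 RPKM in WT libraries, with both cKO values between the WT values. The 95% intervals of the log2 fold change were -0.19 to 0.77 for Cxcr3, -0.16 to 0.87 for Cxcr6 and -0.50 to 0.43 for Ccr2.

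The receptors of skin and mucosal homing were at 11.8 to 19.7 RPKM. Ccr4, the receptor for Ccl17 and Ccl22, had 19.7 and 17.8 RPKM in cKO libraries and 14.4 and 14.3 RPKM in WT libraries. The cKO libraries were apart from the WT libraries, the ratio of means was 1.31, and the difference was larger than the larger SD of 1.31 RPKM. Its log2 fold change was 0.36 with a standard error of 0.12 (limma's unadjusted p = 0.0253, adjusted p = 0.9998). Ccr6, the receptor for Ccl20, had 14.3 and 15.7 RPKM in cKO libraries and 11.8 and 12.1 RPKM in WT libraries, a ratio of means of 1.25. Here too the genotypes did not overlap and cKO was the higher, with a log2 fold change of 0.30 and a standard error of 0.12 (limma's unadjusted p = 0.0501, adjusted p = 0.9998). Ccr8, the receptor for Ccl1 and Ccl8, had 18.6 and 17.1 RPKM in cKO libraries and 19.5 and 16.5 RPKM in WT libraries. The WT values lay on either side of the cKO values, and the log2 fold change was -0.01 with a 95% interval from -0.35 to 0.32.

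**Figure D2:**
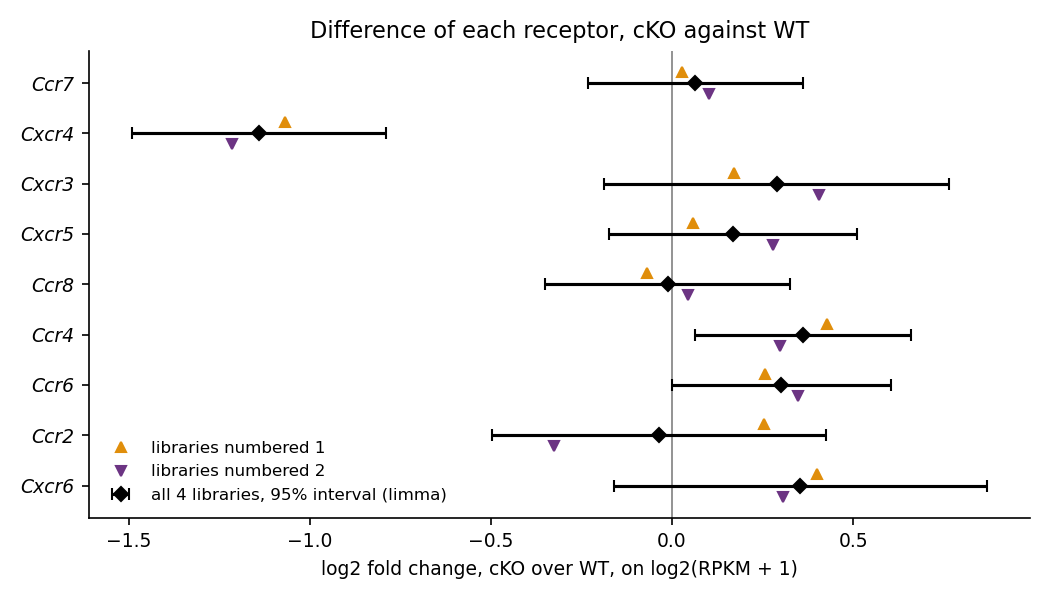
Log2 fold change of each receptor, cKO over WT, on the log2(RPKM + 1) scale, with diamonds and 95% intervals from limma over 4 libraries and triangles for the libraries numbered 1 and 2. Cxcr4 lies at -1.14, and the other 8 receptors lie between -0.04 and 0.36.

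Counted together, 6 of the 9 members had a log2 fold change above 0, where 59.2% of the genes tested did, and their median was 0.17 against 0.03 over all genes tested. For 4 members, Cxcr5, Ccr4, Ccr6 and Ccr7, each cKO library was higher than each WT library, which held for 17.4% of the genes tested. Each was lower for Cxcr4 alone among the members, and for 9.06% of the genes tested. The genotypes thus did not overlap for 5 members, against 26.4% of the genes tested. The other 4 members overlapped, and 0 of the 9 passed the test across all genes. The gap was narrow for Cxcr5, at 17.3 RPKM in cKO replicate 1 and 17.1 RPKM in WT replicate 2. It was also narrow for Ccr7, at 124 RPKM in cKO replicate 2 and 123 RPKM in WT replicate 1. Overlap was counted on the values as given and not again after rescaling. With median-of-ratios, upper-quartile and equal-totals scaling 6 members were still above 0. The share of all genes above 0 was then 45.4%, 52.8% and 50.9%.

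**Figure D3:**
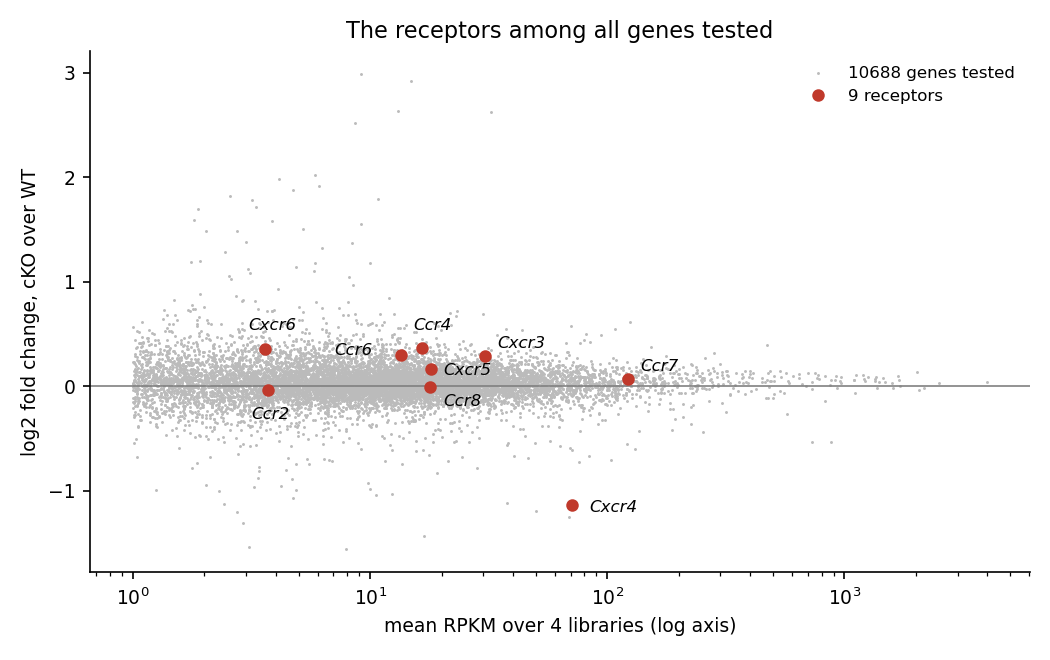
Log2 fold change, cKO over WT, against the mean RPKM on a log axis for the 10688 genes tested (grey) and the 9 receptors (red). Cxcr4 lies at -1.14, and the other receptors lie between -0.04 and 0.36, where the quartiles of the genes tested are -0.05 and 0.12.

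The spread between the pools of 1 genotype can also be set beside counting error. Of the 18 pairs of same-genotype libraries, 1 pair per receptor and genotype, 11 differed by more than 2 counting SDs, and Cxcr4, Cxcr3 and Cxcr6 did so in both genotypes. The widest was Cxcr3 in WT, where number 2 minus number 1 was -7.14 counting SDs. Such counts depend on the number of reads behind a value. They were not made over all genes, so they do not set the receptors apart. In 8 of the 9 members, Ccr2 being the exception, number 2 differed from number 1 in the same direction in both genotypes, and 77.4% of the genes tested did so. Cxcr4 was lower in number 2 in both genotypes.

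Set against WT within each replicate number, Cxcr4 had a log2 difference of -1.07 among the libraries numbered 1 and of -1.21 among those numbered 2. For Ccr4 the same differences were 0.43 and 0.30, for Ccr6 0.26 and 0.35, and for Cxcr6 0.40 and 0.31. For Cxcr3 they were 0.17 and 0.41, for Cxcr5 0.06 and 0.28, and for Ccr7 0.03 and 0.10. The sign was the same in both numbers for 7 members, and it differed for Ccr2 (0.25 and -0.32) and Ccr8 (-0.07 and 0.04). The labels do not say whether a shared number marks a shared batch.

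The order of levels was the same at the top in all 4 libraries, with Ccr7 at the head, then Cxcr4, then Cxcr3. The distance from Cxcr4 down to Cxcr3 was small in cKO and wide in WT. Cxcr4 was 1.32 and 1.31 times Cxcr3 in cKO libraries, and 3.17 and 4.12 times Cxcr3 in WT libraries. Relative to Ccr7, Cxcr4 stood at 0.385 and 0.324 in cKO libraries and at 0.831 and 0.819 in WT libraries. The ratio of Cxcr4 to each of the 8 other members was lower in both cKO libraries than in both WT libraries. The ratio of its WT mean to its cKO mean ran from 2.21 against Ccr8 to 3.07 against Cxcr6, and these ratios share the values of Cxcr4. Cxcr5, Ccr8 and Ccr4 changed places with each other between libraries. Their means lay within their spread in cKO, while in WT Ccr4 (14.3 ± 0.045 RPKM) was below Cxcr5 (16.9 ± 0.393 RPKM) and Ccr8 (18.0 ± 2.13 RPKM, SD, n = 2 each). Ccr2 and Cxcr6 did not differ in level beyond their spread. Ccr6 stood below those 3 and above Ccr2 and Cxcr6 in every library.

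As a share of the summed RPKM of the 9 receptors, Cxcr4 made up 16.8% and 14.6% in cKO libraries and 31.4% in each WT library. The sum itself was 287 and 275 RPKM in cKO libraries and 325 and 301 RPKM in WT libraries. Without Cxcr4 the sum was 239 and 234 RPKM in cKO libraries and 223 and 207 RPKM in WT libraries. The cKO libraries were thus lower with Cxcr4 in the sum and higher without it. In bulk RNA, fewer cells with a transcript and less of it per cell cannot be told apart.

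**Figure D4:**
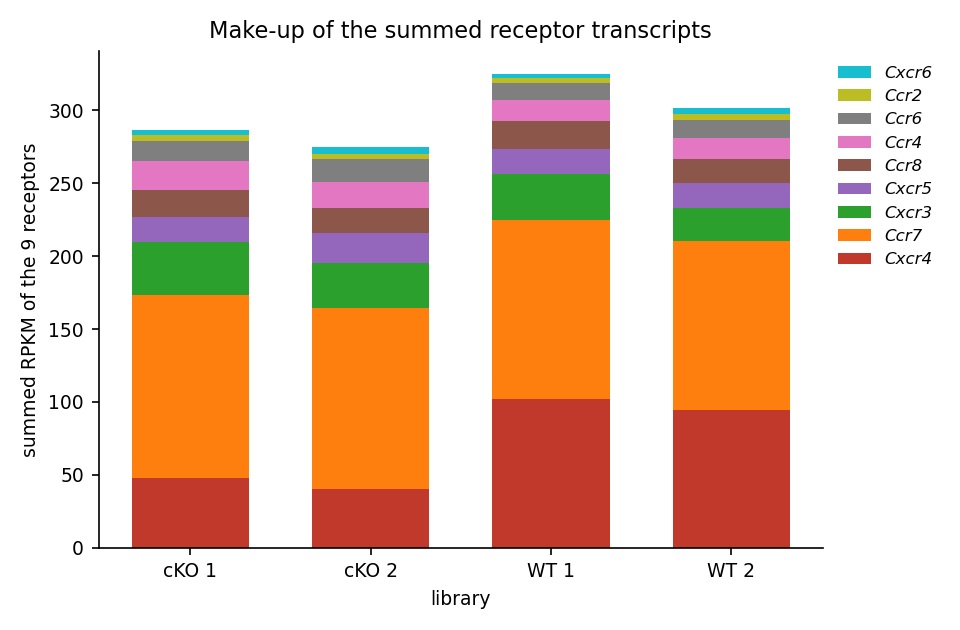
Summed RPKM of the 9 receptors in each library, stacked by receptor with Cxcr4 at the base. Cxcr4 fills 16.8% and 14.6% of the bars of the cKO libraries and 31.4% of each bar of the WT libraries, and Ccr7 fills the largest part of every bar.

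The other listed receptors of the family were low, with no value above 3.22 RPKM, and the highest were near the lowest members, Cxcr6 and Ccr2. Of 15 listed receptors outside the 9, 10 had a value, and these summed to 10.4 and 10.3 RPKM in cKO libraries and to 8.74 and 11.0 RPKM in WT libraries. The 9 members thus held 96.4 to 97.4% of the receptor signal. The highest was Ccrl2, an atypical receptor that binds chemerin, at 2.56 and 2.38 RPKM in cKO libraries and 3.11 and 3.22 RPKM in WT libraries. Both cKO libraries lay below both WT libraries for Ccrl2, with a log2 fold change of -0.26. Cxcr2, the receptor of neutrophil chemokines, had 1.81 and 2.24 RPKM in cKO libraries and 1.92 and 2.80 RPKM in WT libraries, which overlapped. Ccr9, the receptor for Ccl25, had 1.64 and 2.17 RPKM in cKO libraries and 1.61 and 2.48 RPKM in WT libraries, which also overlapped. With means below 1 RPKM, Ccr10 was at 1.24 and 1.04 RPKM in cKO libraries and at 0.535 and 0.605 RPKM in WT libraries, and Ccr3, the eotaxin receptor, at 0.906 and 0.474 RPKM in cKO libraries and at 0.219 and 0.367 RPKM in WT libraries. None of the listed receptors that were tested passed in limma.

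Many receptor genes lie together in the genome. On chromosome 9 are 15 of the 24 listed receptors, 5 members among them, and 8 receptors, including Cxcr6 and Ccr2, stand within 360 kb (GRCm38, chr9:123767211-124127183). Cxcr4 lies alone at chr1:128588199-128592299 on the minus strand, with 1 transcript row (NM_009911.3) in the files. Ccr1 and Ccr3, which share the cluster with Ccr2, were higher in both cKO libraries at levels up to 0.906 RPKM, and Ccr2 itself was not. Ccr1 and Ccr3 were highest in cKO replicate 1, at 0.257 and 0.906 RPKM, where 4 of the 7 myeloid markers, C1qa, C1qb, Csf1r and Adgre1, were also highest. C1qa, a complement gene of macrophages, was at 6.06 RPKM there and at 1.39 to 2.27 RPKM in the other libraries, while Ly6c2 and Itgam were highest in cKO replicate 2 and Lyz2 in WT replicate 2. The part of myeloid RNA in these receptor values was not tested.

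Reads of 50 nt could in part belong to more than 1 gene. Of the distinct 50-base stretches of the Ccr2 transcript, 3.73% also occur in transcripts of other genes, and of those of Cxcr5 2.34% occur on the opposite strand in Bcl9l. For Ccr4 0.514% occur in other transcripts, and for Cxcr4, Cxcr3, Cxcr6, Ccr6, Ccr7 and Ccr8 none did so exactly in GENCODE M21. Ccr6 had 7 transcript rows, with ratios of cKO to WT means from 1.22 to 1.29. Rows of 1 gene share reads and are not separate measurements.

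The genes nearest to Cxcr4 in pattern over the 4 libraries were Trav9-4, a variable segment of the T cell receptor alpha chain, Phlpp1, a phosphatase that acts on Akt, Pik3ip1, an inhibitor of PI3 kinase, Cpt1a, which brings fatty acids into mitochondria for oxidation, and Lman2l, a lectin of the secretory pathway. Nearness was the distance between each gene's 4 deviations from its own mean log2(RPKM + 1) and those of Cxcr4, over 8363 genes that averaged 4 RPKM or more, and it was smallest for Trav9-4 (0.442) and Phlpp1 (0.476). Pik3ip1 had 37.0 and 33.1 RPKM in cKO libraries and 64.4 and 50.6 RPKM in WT libraries. Cpt1a had 15.6 and 16.2 RPKM in cKO libraries and 29.1 and 24.4 RPKM in WT libraries. Both were lower in each cKO library than in each WT library, by less than Cxcr4 was. Trav9-4 had 3.39 and 2.04 RPKM in cKO libraries and 5.57 and 7.95 RPKM in WT libraries, and Lman2l 8.23 and 7.04 RPKM in cKO libraries and 13.2 and 20.7 RPKM in WT libraries. These genes were picked for this likeness, so their values are a description.

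**Figure D5:**
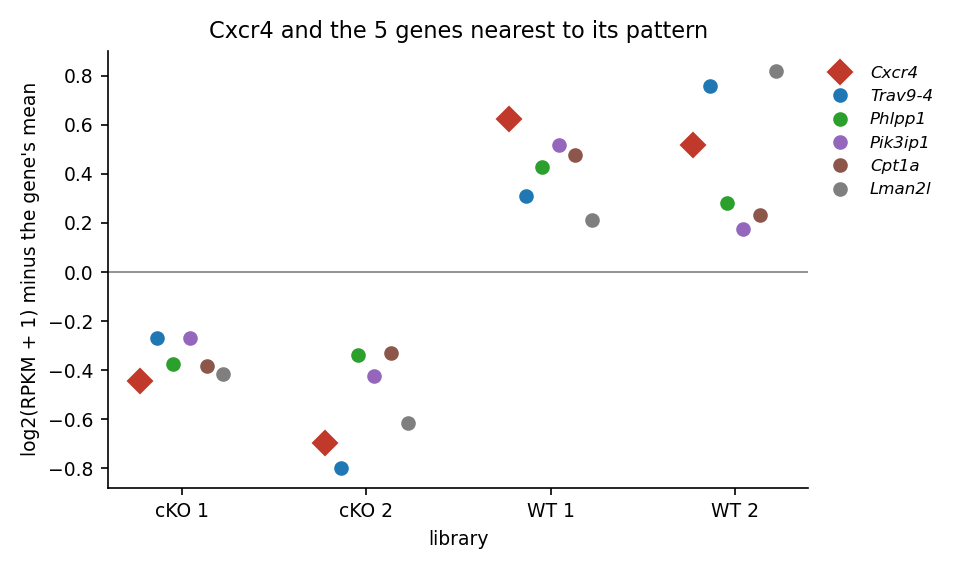
Log2(RPKM + 1) of Cxcr4 (diamonds) and of the 5 genes nearest to its pattern (circles) in each library, as the deviation from each gene's own mean over 4 libraries. All 6 genes lie under 0 in both cKO libraries and over 0 in both WT libraries, with Cxcr4 at -0.44 and -0.70 in cKO and at 0.62 and 0.52 in WT.

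Chemokines themselves were mostly low in these cells. Of 27 listed ligands 14 had a value and 4 a mean of at least 1 RPKM. Mif, a cytokine that binds Cd74 and Cxcr4, had 130 and 131 RPKM in cKO libraries and 123 and 108 RPKM in WT libraries. Ccl5, a chemokine of effector T cells, had 8.41 and 11.8 RPKM in cKO libraries and 7.22 and 4.71 RPKM in WT libraries. Cxcl10, a ligand of Cxcr3, had 3.33 and 3.58 RPKM in cKO libraries and 2.89 and 2.06 RPKM in WT libraries. These 3 were higher in both cKO libraries than in both WT libraries, as were 17.4% of all genes tested, and Ccl25 overlapped between genotypes. Ccl1, a ligand of Ccr8, averaged 0.946 ± 0.901 RPKM in cKO and 0.768 ± 0.062 RPKM in WT, and Xcl1 0.996 ± 0.349 RPKM in cKO and 0.620 ± 0.300 RPKM in WT (SD, n = 2 each). None of the 4 tested ligands passed in limma, where Ccl5 had an unadjusted p of 0.0308 and the 4 had an adjusted p of 0.9998. Over the 4 fits with 1 library left out, the log2 fold change of Ccl5 ran from 0.42 to 0.94.

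Genes that carry, dampen or recycle the signal of these receptors differed little. Of 21 listed genes 20 were tested, with 10 above 0, against 59.2% of all genes tested, and 0 passing. The median of their log2 fold changes was -0.0018, against 0.03 over all genes tested. Rac2, a GTPase of leukocyte migration, had 341 and 294 RPKM in cKO libraries and 316 and 263 RPKM in WT libraries. Gnai2, the Gi subunit of chemokine receptors, had 253 and 250 RPKM in cKO libraries and 239 and 231 RPKM in WT libraries, with the cKO libraries above. Grk2 and Grk6, kinases that desensitise the receptors, averaged 143 ± 8.13 and 114 ± 8.29 RPKM in cKO, against 147 ± 0.293 and 104 ± 10.1 RPKM in WT (SD, n = 2 each). Rgs1, which shortens Gi signals, had 75.9 and 120 RPKM in cKO libraries and 79.3 and 105 RPKM in WT libraries, and followed the replicate number. Dock2, the Rac activator of lymphocyte migration, averaged 93.0 ± 4.82 RPKM in cKO and 91.6 ± 0.166 RPKM in WT (SD, n = 2 each). Cd74, with 29.6 and 30.7 RPKM in cKO libraries and 28.7 and 24.98 RPKM in WT libraries, is also a gene of B cells and other antigen-presenting cells. The 3 B cell markers were likewise higher in both cKO libraries, while the sums of the dendritic and myeloid markers overlapped between genotypes. The part of such cells in the Cd74 value was not tested.

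Transcription factors linked to receptor genes were also measured. Of 13 such genes 8 lay above 0, against 59.2% of all genes tested, and 0 passed. The median of their log2 fold changes was 0.03, and over all genes tested it was also 0.03. Klf2 and Foxo1, which are known to promote Ccr7 and L-selectin in resting T cells, were the most abundant of them. Klf2 had 232 and 171 RPKM in cKO libraries and 218 and 199 RPKM in WT libraries, which overlapped. Foxo1 had 66.3 and 68.7 RPKM in cKO libraries and 57.8 and 65.8 RPKM in WT libraries, with the cKO libraries just above. Bcl6, the factor of follicular T cells, had 8.25 and 7.54 RPKM in cKO libraries and 10.1 and 9.71 RPKM in WT libraries. Bcl6 was therefore lower in both cKO libraries while Cxcr5 was higher, with log2 fold changes of -0.30 (standard error 0.13) and 0.17. Satb1, a chromatin organiser of T cells, averaged 48.9 ± 1.69 RPKM in cKO and 56.6 ± 5.87 RPKM in WT, and Batf 50.9 ± 8.26 RPKM in cKO and 46.2 ± 8.73 RPKM in WT (SD, n = 2 each). The glucocorticoid receptor gene Nr3c1 had 15.6 and 20.9 RPKM in cKO libraries and 19.2 and 31.8 RPKM in WT libraries, which overlapped.

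Genes that respond to stress and handling of cells were also measured. Of 11 listed genes 10 were tested and 0 passed. The log2 fold change was above 0 for 1 of them, against 59.2% of all genes tested, and 5 were lower in both cKO libraries than in both WT libraries, as were 9.06% of all genes tested. Dusp1, a phosphatase of MAP kinases, had 56.2 and 53.4 RPKM in cKO libraries and 101 and 68.3 RPKM in WT libraries. Hsph1, a heat shock protein, had 32.9 and 23.3 RPKM in cKO libraries and 40.1 and 104 RPKM in WT libraries. The list summed to 1188 and 1043 RPKM in cKO libraries and to 1398 and 1714 RPKM in WT libraries, most of it Hspa8. Within WT, Hspa8, Hsph1 and Fos were higher in replicate 2, and Dusp1, Junb and Egr1 were, like Cxcr4, higher in replicate 1. The part of handling in the Cxcr4 values was not tested.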

How the data were processed

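RNA of sorted splenic Treg cells was sequenced as single-end reads of 50 nt, with 2 cKO and 2 WT libraries, grouped and numbered by the labels. The authors deposited RPKM values for 19291 transcripts per library. The unit is inferred from the values, as no header names it. The names HISAT2, DESeq2 and mm10 are given, per the submitters' processing notes, without saying what each was used for. How reads were counted, whether strand was used and which transcripts were kept is not stated there.

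Rows were given genes by RefSeq accession (16720 rows), by symbol or synonym (768 and 142) or by the name in the file (492), with an NCBI table of GRCm38.p6, which is the assembly called mm10. Left out were 1169 rows that matched no gene (10.9% of the RPKM sum). Per gene the transcript of highest mean was used, and 10688 of 14193 genes had a mean of at least 1 RPKM and were tested with limma 3.58.1 in R 4.3.3. The two-sided fit on log2(RPKM + 1) held genotype alone, used the trend and robust options, and called genes at a Benjamini-Hochberg adjusted p under 0.05. On this scale the fold change of low genes is understated. Means, SDs and ratios are of RPKM itself.

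Depth was the number of reads for which RPKM times GENCODE M21 transcript length fell closest to whole reads. At that depth 61.2 to 62.9% of values of 1 to 20 reads were whole to within 0.1 read. Evenly spread values would give 20%, but the depth was chosen on such low values, so this share does not test it. The best depth led other depths by little. Its fit score was 0.643 against 0.639 in WT replicate 1, the narrowest lead, and 0.749 against 0.716 in cKO replicate 2, the widest. Read numbers behind a value are therefore approximate, and counting SDs cover counting error only. P-values set a difference against the spread between pools, which may be partly technical. In every fit limma takes part of that spread from the other genes. The fit was tested on simulated data.

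Pseudocount, filter, scaling, moderation, transcript choice, replicate block and left-out libraries were varied. The members, lists, motifs and tests were chosen with earlier results of these data known. Named are the 9 members, up to 6 other receptors and ligands of highest mean, up to 6 signalling genes of highest mean and 4 of lowest p, up to 4 regulators of highest mean and 3 of lowest p, Nsd2, Foxp3, markers of other cells (as sums and examples) and the 5 genes nearest to Cxcr4. A few genes picked this way are not reported here. Upstream sequences are from RefSeq (GRCm38.p6), where 7 of the 9 members matched. Python 3.11.15, pandas 2.3.3 and matplotlib 3.10.9 were used.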

Additional observations from a re-analysis of the deposited data

How the results depend on the processing

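Cxcr4 had a log2 fold change below 0 under all 14 alternatives, from -1.27 to -1.01. Of the fits to all 4 libraries, it passed in limma only with the replicate block (log2 fold change -1.14, standard error 0.06, adjusted p = 0.0471). Its adjusted p from limma in those fits ran from 0.0471 to nearly 1. With 1 library left out its log2 fold change ran from -1.27 to -1.01, and only the fold change is read from such fits. The number of genes called in limma was 0 in the fit as reported, with 332 at an unadjusted p under 0.05. It was 1 with the replicate block, which was Cxcr4, and 21 to 66 with a library left out. Over the 10688 genes, number 1 minus number 2 in cKO correlated with that in WT (Pearson r = 0.513, across genes, which are not independent replicates). With 2 pairs the numbers are not shown to pair the libraries. The replicate block changed no other member's call. Ccr2 and Ccr8 turned sign in single left-out fits, with log2 fold changes from -0.23 to 0.16 for Ccr2 and from -0.13 to 0.10 for Ccr8, and the cause was not tested. The other 6 members stayed above 0 under every alternative that gave a value. With 1 library left out their log2 fold changes ran from 0.06 to 0.52 for Cxcr3, 0.04 to 0.30 for Cxcr5, 0.14 to 0.57 for Cxcr6, 0.29 to 0.43 for Ccr4, 0.24 to 0.36 for Ccr6 and 0.02 to 0.11 for Ccr7, and, with genes kept at a mean of at least 4 RPKM, Ccr2 and Cxcr6 were not tested. Depth limits Cxcr6 and Ccr2, whose values rest on 91 to 254 reads.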
